A study of Mus musculus with 4 samples.

Results

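The genes described here are 46 genes of the spindle, the kinetochore and cytokinesis, taken from a fixed list of symbols and measured in sorted skin cells of mouse pups after induction of the microRNA miR-203. Each gene was represented by the probe set with the highest mean over the 4 arrays among those annotated to that gene alone. All 46 were found, among 18193 genes with such a probe set, and 45 lay above the level under which probe sets were left out of the tests (the 40th percentile of mean log2 values, 4.17). Kif15, a spindle motor, lay below it on every array (3.85 and 3.91 in controls, 3.84 and 3.97 in induced arrays, log2) and was not tested. The 45 stood beside 13489 genes tested in all. The list was sorted by role into 6 subgroups: checkpoint and sister separation (9 genes), kinetochore and centromere (9), kinesins (9, of which 8 tested), mitotic kinases and their partners (10), cytokinesis (4) and other chromosome and spindle proteins (5).

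The induced pups carried K14-rtTA, TRE-miR-203 and K14-H2BGFP, that is, a doxycycline-dependent activator and a nuclear green fluorescent protein, both driven by the keratin 14 promoter of basal keratinocytes, and a miR-203 transgene that responds to the activator. Their littermate controls, labelled WT, carried TRE-miR-203 and K14-H2BGFP without K14-rtTA, so the control lacks the activator itself as well as its effect. Both groups are of the FVB background and were taken at postnatal day 4, 24 h after doxycycline, and the cells were sorted with a gate not given in the sources used here. Each group has 2 arrays, which the labels call biological replicates, and so few arrays limit how precisely any value is known. Whether and how strongly the mature microRNA was induced was not measured by the probe sets used. The question is which transcripts stand higher or lower a day after doxycycline.

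Mitosis is driven by the kinase Cdk1 and its partners, which condense the chromosomes and build the spindle. Kinetochores, assembled on centromeric chromatin, bind the spindle microtubules, and the spindle checkpoint withholds the anaphase-promoting complex until all of them are attached. That complex then releases the sister chromatids, and the spindle midzone directs cytokinesis. In the epidermis dividing cells lie in the basal layer and the hair follicle matrix, while miR-203 is a microRNA of the differentiating layers. Most of these genes are transcribed late in the cell cycle, so that in a mixed sample fewer dividing cells and less RNA per dividing cell cannot be told apart. The induced microRNA is shown here as RefSeq gives its main mature arm (GRCm38.p6, chr12:112130927-112130948, plus strand), with the seed, bases 2 to 8, in capitals.
mmu-miR-203-3p: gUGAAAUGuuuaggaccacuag

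The deposited log2 values had array medians of 4.74 to 4.79. The basal keratins Krt5 and Krt14 lay between 13.6 and 14.1 on all 4 arrays, so that the defining markers of the labelled epidermal cells were present. Sex-linked transcripts set induced replicate 1 apart: Eif2s3y of the Y chromosome was at 9.38 there, against 2.52 to 2.82 on the others, and Xist was at 5.86, against 10.6 to 11.2. The medians of the mitosis genes and of their subgroups are therefore given with and without that array.

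The mitosis genes had lower means in the induced arrays in 43 of 45 cases, with a median difference of -0.21 on the log2 scale (induced minus control), where the median over all 13489 genes was -0.00. Of all genes, 50.4% had a lower mean. The differences ran from -0.53 for Spc24 to 0.03 for Nek2. In 24 of 45 genes both induced arrays lay below both controls, and in 0 both lay above; among all genes 19.3% were separated downwards and 20.1% upwards. By limma, 0 of 45 had an adjusted p under 0.05, where 0.0% of all genes did, and 10 of 45 were lower at an unadjusted p under 0.05, where 5.23% of all genes were. At that level 0 of 45 were higher, where 4.4% of all genes were. The 10 were Bub1, Mad2l1, Spc24, Spc25, Cenph, Kif2c, Cdk1, Melk, Prc1 and Anln. With limma's trended and robust prior 0 of the 45 passed as well.

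The 2 induced arrays did not contribute equally. Induced replicate 1 lay below both controls for 43 of 45 genes (35.3% of all genes) and was the lowest of the 4 arrays for 41 (26.4% of all genes). Induced replicate 2 lay below both controls for 25 of 45 (33.3% of all genes), between them for 11 and above both for 9. Of all 13489 genes it lay between the controls for 4161 and above both for 4836. The median distance from the control mean was -0.36 in induced replicate 1 and -0.06 in induced replicate 2, while the controls lay at -0.01 and 0.01. The gap between the induced arrays exceeded the gap between the controls for 41 of 45 genes (49.4% of all genes). The medians of these gaps were 0.296 and 0.0761, whereas over all genes they were 0.114 and 0.119. Without induced replicate 1 the median difference of the 45 genes was -0.06 with 33 lower means, and without induced replicate 2 it was -0.36 with 45 lower means.

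**Figure D1:**
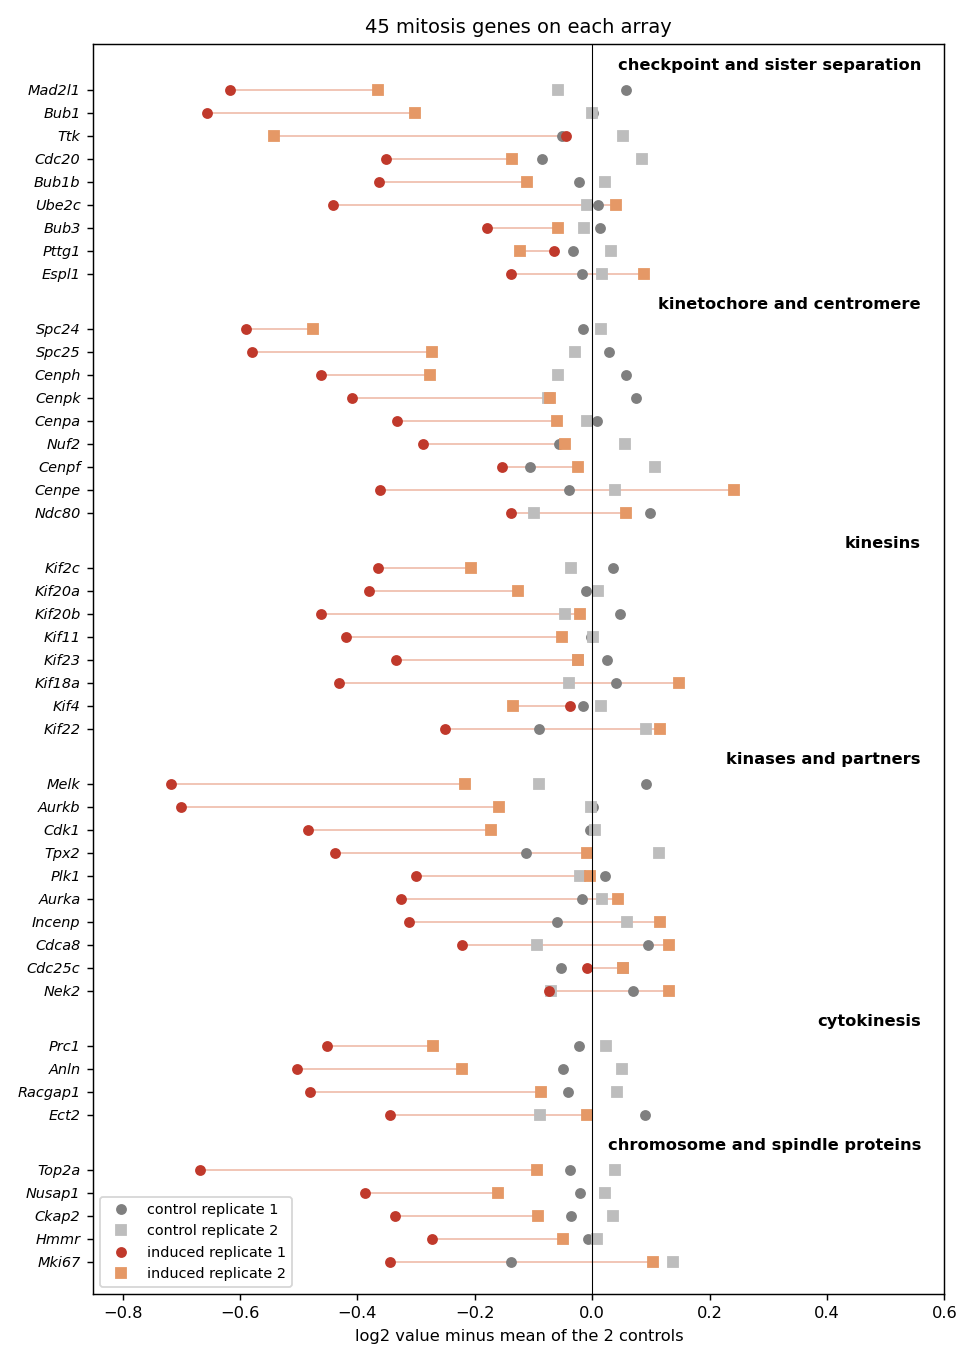
Each row is 1 of the 45 tested mitosis genes, sorted by difference within its subgroup, and each marker is 1 array, plotted as its log2 value minus the mean of the 2 controls. Induced replicate 1 (dark red circles) is the lowest array for 41 genes, and induced replicate 2 (orange squares) lies below both controls for 25.

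**Figure D2:**
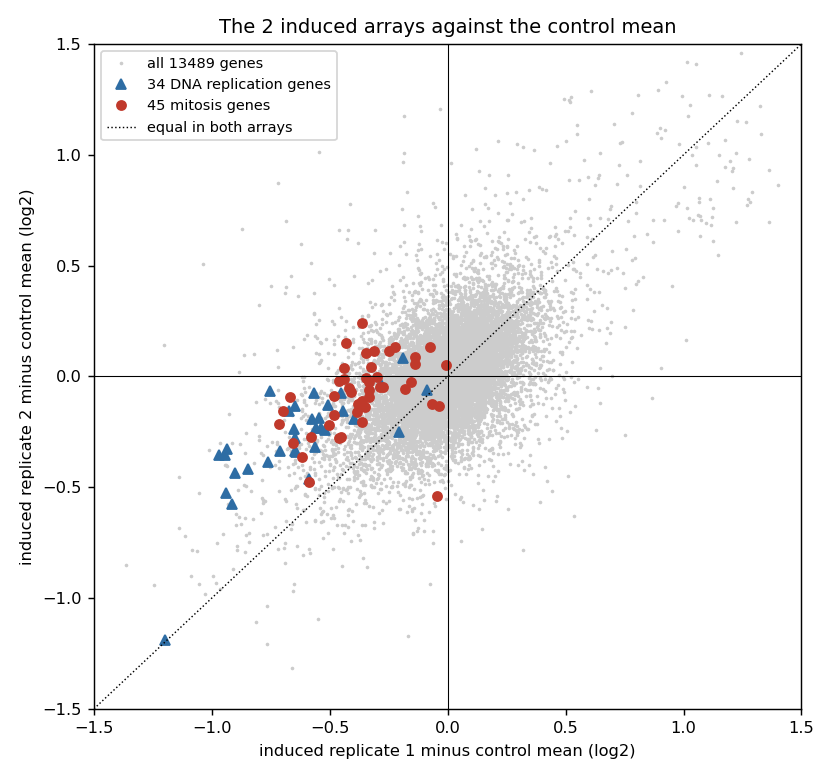
Distance from the control mean in induced replicate 1 (x axis) and induced replicate 2 (y axis), on the log2 scale, for all 13489 genes (grey), 34 DNA replication genes (blue triangles) and the 45 mitosis genes (red circles); genes beyond 1.5 on either axis are not drawn. Both axes use the same control mean, which by itself spreads points along the dotted line of equal values; for 42 of the 45 mitosis genes induced replicate 1 was lower than induced replicate 2.

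Promoters of 6 genes of different roles are shown as examples with and without a match to a shared element. Genes transcribed late in the cell cycle are known for the cell cycle genes homology region (CHR), bound by repressor and activator complexes of the cell cycle. It often has CCAAT boxes a short distance upstream. RefSeq windows from 250 bases before to 50 after the start (GRCm38.p6) were found for 40 of the 46 genes, 45 windows in all. The CHR core was searched as TTTGAA, which on the opposite strand reads TTCAAA, and the CCAAT box as CCAAT, which on the opposite strand reads ATTGG. The stretches run 5′ to 3′ on the gene's strand from 125 bases before to 25 after the start, with matches to either motif in capitals. The first 4 hold a match to the CHR core in this exact form and the last 2 do not. Variant forms, such as the TTCGAA in the stretch of Bub1, were not searched, so a gene without a match may still carry the element.
Cdk1, chr10:69352888-69353037, minus strand: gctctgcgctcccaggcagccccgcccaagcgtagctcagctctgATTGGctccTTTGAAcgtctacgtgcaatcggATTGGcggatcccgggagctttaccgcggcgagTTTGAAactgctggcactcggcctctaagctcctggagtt
Cdc20, chr4:118437319-118437468, minus strand: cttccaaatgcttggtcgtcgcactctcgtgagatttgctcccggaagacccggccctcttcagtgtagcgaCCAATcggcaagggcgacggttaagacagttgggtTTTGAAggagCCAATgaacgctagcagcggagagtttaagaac
Top2a, chr11:99024165-99024314, minus strand: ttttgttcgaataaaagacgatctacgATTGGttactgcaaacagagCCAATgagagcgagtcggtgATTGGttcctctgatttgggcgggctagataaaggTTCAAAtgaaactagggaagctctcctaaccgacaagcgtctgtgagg
Kif11, chr19:37376257-37376406, plus strand: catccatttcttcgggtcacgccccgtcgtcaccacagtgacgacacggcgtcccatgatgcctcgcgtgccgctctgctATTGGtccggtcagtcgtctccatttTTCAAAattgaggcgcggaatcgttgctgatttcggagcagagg
Bub1, chr2:127831835-127831984, minus strand: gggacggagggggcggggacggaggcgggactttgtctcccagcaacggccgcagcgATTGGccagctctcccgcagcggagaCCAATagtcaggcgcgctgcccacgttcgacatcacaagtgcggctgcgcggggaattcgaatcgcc
Mad2l1, chr6:66535096-66535245, plus strand: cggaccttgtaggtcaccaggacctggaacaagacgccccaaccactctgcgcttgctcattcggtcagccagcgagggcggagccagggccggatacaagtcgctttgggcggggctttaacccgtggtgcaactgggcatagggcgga

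The CHR core was present in 32 of the 45 windows of the mitosis genes (71.1%), in 12.3% of the 13833 windows of genes above the filter and in 17.9% of all 32851 windows. A CCAAT box was present in 75.6%, 37.1% and 37.4% of these windows. Both were present in 27 of the 45 mitosis windows and in 4.81% of those of genes above the filter. The median GC content was 58.7% in the mitosis windows and 52.7% in all windows, and it lay 1.3 percentage points higher in those of genes above the filter than in the mitosis windows. Of 41 CHR core matches in the mitosis windows, 30 began within 50 bases of the start, and 1 overlapped a CCAAT match. Some genes had more than 1 window, and where these overlap a site counts more than once, as in Prc1 and Ect2. By gene, 29 of the 40 with a window held the CHR core. By subgroup, the CHR core was found in 6 of 6 cytokinesis windows (4 genes), 7 of 8 kinesin windows (8 genes) and 4 of 10 kinetochore windows (8 genes). In 109 windows of other mitosis genes the share was 33.0%, and of 35 windows of DNA replication genes 7 held it.

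Among tested genes with a window, a match to the CHR core as searched did not go with a larger median difference in the induced arrays. Spc24, Aurkb, Kif20a, Tpx2, Incenp and Cdc25c had no window and are in neither group. Their differences ran from -0.53 (Spc24) to 0.02 (Cdc25c). The 28 tested genes with a match had a median difference of -0.20, and 15 of them were separated downwards. The 11 without one (Bub1, Cenpe, Cenph, Cenpk, Kif18a, Mad2l1, Melk, Nek2, Nuf2, Nusap1 and Pttg1) had a median of -0.24, with 6 separated downwards. A match is a description of these letters in this window, and the split was not tested.

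**Figure D3:**
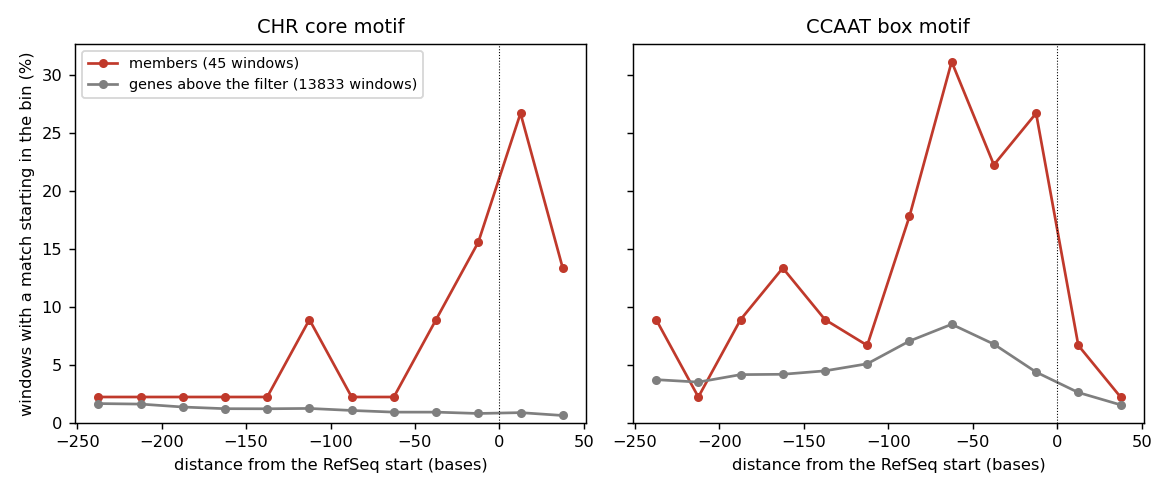
Percent of RefSeq promoter windows with a match to the CHR core (left) or the CCAAT box (right) that begins in each bin of 25 bases, against distance from the annotated start, for the 45 windows of the mitosis genes (red) and the 13833 windows of genes above the filter (grey). CHR core matches of the mitosis genes gather within 50 bases of the start, where 30 of 41 begin, and CCAAT matches lie mostly just upstream.

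In the checkpoint and sister separation subgroup the median difference was -0.24. The means of all 9 genes were lower in the induced arrays, and 6 genes were separated. For this and each later subgroup, the shares over all genes were 50.4% with lower means and 19.3% separated downwards. Mad2l1, which binds and holds back Cdc20 at unattached kinetochores, had log2 values of 9.61 and 9.49 in controls and of 8.93 and 9.19 in induced arrays. The arrays did not overlap, and the difference was -0.49 ± 0.12 (SE of the model, n = 2 and 2; 1.41-fold lower, limma adjusted p = 0.308). Bub1, a checkpoint kinase of the outer kinetochore, had values of 7.99 and 7.99 in controls and of 7.33 and 7.68 in induced arrays. Its controls differed by under 0.01 and both induced arrays lay below them (-0.48 ± 0.14, 1.39-fold lower, adjusted p = 0.362). Cdc20, the activator of the anaphase-promoting complex that the checkpoint restrains, had values of 9.65 and 9.82 in controls and of 9.38 and 9.60 in induced arrays (-0.24 ± 0.12, adjusted p = 0.587). The separation of Cdc20 was narrow, the higher induced array lying close under the lower control.

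Bub1b and Bub3, which with Mad2l1 and Cdc20 form the mitotic checkpoint complex, differed by -0.24 ± 0.12 and -0.12 ± 0.10. In the probe sets used, all 4 subunits of that complex were separated downwards, where 19.3% of all genes were. The complex was chosen after the values were seen. Of the other probe sets above the filter, those of Cdc20 (-0.16 and -0.10) overlapped, as did a further probe set of Bub1b (-0.04). Another of Bub1b (-0.34) and that of Bub3 (-0.08) were separated. Ttk (Mps1), the kinase that starts checkpoint signalling, ran the other way between the induced arrays. Its values were 9.27 and 9.37 in controls and 9.28 and 8.78 in induced arrays (-0.29 ± 0.18, adjusted p = 0.652), so that the low value came from induced replicate 2 and the groups overlapped. The ubiquitin-conjugating enzyme gene Ube2c (-0.20 ± 0.17) and the separase gene Espl1 (-0.02 ± 0.12) were lower in induced replicate 1 alone. The securin gene Pttg1 was separated by a small amount (-0.09 ± 0.10). Without induced replicate 1 the median of the subgroup was -0.12, and without induced replicate 2 it was -0.35.

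In the kinetochore and centromere subgroup all 9 genes had lower means, 4 of them separated, and the median difference was -0.20. Spc24, a subunit of the microtubule-binding Ndc80 complex, had values of 7.07 and 7.10 in controls and of 6.50 and 6.61 in induced arrays. Its difference of -0.53 ± 0.10 (1.45-fold lower) was the lowest of the 45 genes and had their lowest adjusted p, 0.205. Both induced arrays were low for Spc24 by similar amounts, -0.59 and -0.48 from the control mean. Spc25, its partner in the same complex, had values of 8.02 and 7.96 in controls and of 7.41 and 7.71 in induced arrays (-0.43 ± 0.13, 1.34-fold lower, adjusted p = 0.381). The other 2 subunits stood closer to the controls, Nuf2 at -0.17 ± 0.12 and Ndc80 at -0.04 ± 0.12, and neither was separated. The differences within this 4-subunit complex thus ran from -0.53 to -0.04, and whether the subunits differ from each other was not tested.

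Cenph, of the inner kinetochore network that sits on centromeric chromatin, had values of 6.95 and 6.84 in controls and of 6.43 and 6.62 in induced arrays (-0.37 ± 0.11, 1.29-fold lower, adjusted p = 0.381). The arrays of Cenph did not overlap. Cenpk, of the same network, differed by -0.24 ± 0.14, and Cenpa, the centromeric histone H3 variant, by -0.20 ± 0.12 with both induced arrays below the controls. Cenpf, a large outer kinetochore protein, differed by -0.09 ± 0.12 and was not separated, while its dimmer probe sets (-0.37 and -0.19) were separated downwards. Cenpe, the kinetochore kinesin, differed by -0.06 ± 0.20, with induced replicate 1 at -0.36 and induced replicate 2 at 0.24 from the control mean, on opposite sides of both controls. This holds for the probe set used. The other probe set of Cenpe, nearly as bright, was separated downwards (7.15 and 7.27 in controls, 6.89 and 7.10 in induced arrays, -0.21). Without induced replicate 1 the median of the subgroup was -0.06, and without induced replicate 2 it was -0.36.

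The means of all 8 tested kinesins were lower, and 4 kinesins were separated (median difference -0.21). Kif2c (MCAK), which depolymerises microtubules at centromeres, had values of 7.88 and 7.80 in controls and of 7.48 and 7.63 in induced arrays. It was the kinesin with the lowest difference (-0.29 ± 0.11, 1.22-fold lower, adjusted p = 0.457). Kif20a, a motor of the central spindle, had values of 7.53 and 7.55 in controls and of 7.16 and 7.41 in induced arrays (-0.25 ± 0.12, 1.19-fold lower, adjusted p = 0.559). Kif20a was separated, its induced arrays lying at -0.38 and -0.13 from the control mean.

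Kif20b, a motor of the same family, had values of 7.70 and 7.60 in controls and of 7.19 and 7.63 in induced arrays (-0.24 ± 0.16, adjusted p = 0.697), so that induced replicate 2 fell between the controls. Kif11 (Eg5), which pushes the spindle poles apart, had values of 7.27 and 7.28 in controls and of 6.85 and 7.22 in induced arrays (-0.24 ± 0.14, adjusted p = 0.657). The induced arrays of Kif11 lay at -0.42 and -0.05 from the control mean, so that most of the difference came from induced replicate 1. The centralspindlin motor Kif23 (-0.18 ± 0.13), the chromosome alignment motor Kif18a (-0.14 ± 0.20) and the chromokinesin Kif22 (-0.07 ± 0.15) were below both controls in induced replicate 1 alone. Kif4, also a chromokinesin, was separated with its lower value in induced replicate 2 (-0.09 ± 0.10). The median of the 8 was -0.04 without induced replicate 1 and -0.37 without induced replicate 2.

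Among the mitotic kinases and their partners 8 of 10 genes had lower means and 3 (30.0%) were separated downwards, with the median nearest to 0 of the 6 subgroups, -0.15. Over all genes 50.4% had lower means and 19.3% were separated downwards. Melk, a kinase gene widely used as a proliferation marker, had values of 7.10 and 6.92 in controls and of 6.29 and 6.79 in induced arrays (-0.47 ± 0.18, 1.38-fold lower, adjusted p = 0.478). The higher induced array of Melk lay only 0.13 below the lower control. Aurkb, the kinase of the chromosomal passenger complex, which corrects faulty attachments, had values of 7.14 and 7.14 in controls and of 6.44 and 6.98 in induced arrays (-0.43 ± 0.18, 1.35-fold lower, adjusted p = 0.522). Cdk1 had values of 9.37 and 9.38 in controls and of 8.89 and 9.21 in induced arrays (-0.33 ± 0.13, 1.26-fold lower, adjusted p = 0.486). For Aurkb and Cdk1 the controls nearly coincided, and induced replicate 2 lay 0.16 and 0.17 below their mean.

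Plk1, the kinase of centrosome maturation and mitotic exit, had values of 7.66 and 7.62 in controls and of 7.34 and 7.64 in induced arrays (-0.15 ± 0.13, adjusted p = 0.771), with induced replicate 2 between the controls. The spindle pole kinase Aurka (-0.14 ± 0.14) and its activator Tpx2 (-0.22 ± 0.17) were likewise below both controls in induced replicate 1 alone. The other passenger subunits Incenp (-0.10 ± 0.16) and Cdca8 (-0.05 ± 0.15) showed the same pattern. The genes with higher means were Nek2, a centrosome kinase (0.03 ± 0.12), and Cdc25c, the phosphatase that activates Cdk1 (0.02 ± 0.10). Without induced replicate 1 the median of the subgroup changed sign to 0.02, and without induced replicate 2 it was -0.32.

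The 4 cytokinesis genes all had lower means, 3 of them separated, with a median of -0.32, the lowest of the subgroups. Prc1, which bundles the microtubules of the spindle midzone, had values of 7.87 and 7.92 in controls and of 7.45 and 7.63 in induced arrays (-0.36 ± 0.11, 1.29-fold lower, adjusted p = 0.369). Anln (anillin), the scaffold of the contractile ring, had values of 8.80 and 8.90 in controls and of 8.35 and 8.63 in induced arrays (-0.36 ± 0.13, 1.28-fold lower, adjusted p = 0.437). For both genes each induced array lay at least 0.2 below the control mean. Racgap1, the GTPase-activating subunit of centralspindlin, had values of 7.01 and 7.10 in controls and of 6.58 and 6.97 in induced arrays (-0.28 ± 0.15, 1.22-fold lower, adjusted p = 0.603). Ect2, the exchange factor that activates RhoA at the cell equator, differed by -0.18 ± 0.15 and was not separated. The median was -0.15 without induced replicate 1 and -0.47 without induced replicate 2.

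The 5 other chromosome and spindle proteins all had lower means, 4 of them separated, with a median of -0.21. Top2a, the topoisomerase that disentangles sister chromatids, had values of 9.999 and 10.08 in controls and of 9.37 and 9.94 in induced arrays (-0.38 ± 0.19, 1.30-fold lower, adjusted p = 0.589). Its induced arrays lay at -0.67 and -0.09 from the control mean, so that most of the difference came from induced replicate 1. Nusap1, which binds spindle microtubules near chromatin, had values of 8.73 and 8.78 in controls and of 8.37 and 8.59 in induced arrays (-0.27 ± 0.12, 1.21-fold lower, adjusted p = 0.510). Ckap2, a spindle microtubule protein, had values of 8.54 and 8.61 in controls and of 8.24 and 8.48 in induced arrays (-0.21 ± 0.12, adjusted p = 0.623).

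Hmmr, a spindle pole protein and hyaluronan receptor, differed by -0.16 ± 0.11. Mki67, which coats mitotic chromosomes and is the usual marker of dividing cells, had values of 9.64 and 9.92 in controls and of 9.44 and 9.89 in induced arrays. The controls of Mki67 lay farther apart than those of any other of the 45 genes (0.28), and the difference of -0.12 ± 0.18 (adjusted p = 0.903) had the opposite sign without induced replicate 1 (0.10) and without control replicate 2 (0.02). The median of the 5 genes was -0.09 without induced replicate 1 and -0.34 without induced replicate 2.

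**Figure D4:**
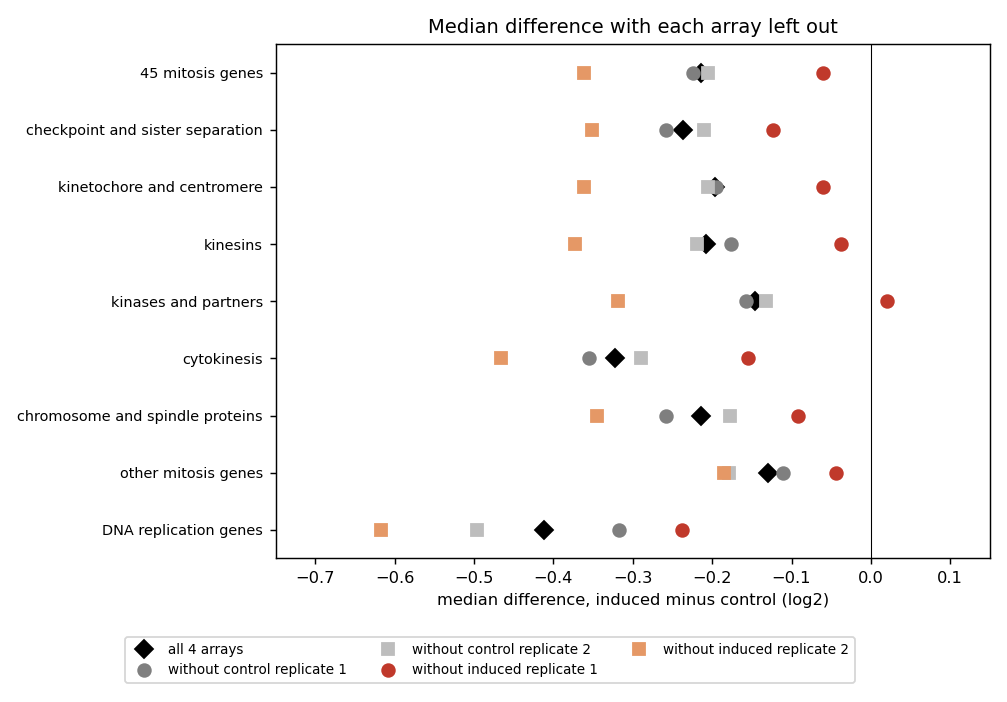
Median difference between induced and control arrays (log2) with all 4 arrays (black diamonds) and with each array left out in turn, for the 45 mitosis genes, their 6 subgroups, 106 other mitosis genes and 34 DNA replication genes. Leaving out induced replicate 1 moves each median towards 0, to -0.06 for the 45 genes and to 0.02 for the kinases, and to -0.24 for DNA replication.

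The 46 genes had 105 probe sets annotated to them alone, of which 86 lay above the filter. Besides the 45 used, 41 probe sets of 24 genes remained, 28 with lower and 13 with higher means in the induced arrays, and their median difference was -0.10. The sign was opposite to that of the gene's main probe set in 10 of them. Hmmr accounted for 4 of those: its 4 dimmer probe sets had differences between 0.01 and 0.24, so that its direction is uncertain. The passenger complex genes had larger differences in other probe sets than in their main ones. Aurkb had a further probe set with a difference of -0.59, Incenp had -0.29 and -0.32, and Cdca8 had -0.38 and -0.11. Cenpe (-0.21) and Cenpf (-0.37 and -0.19) also had larger differences in their other probe sets. Nek2 was higher in all 3 of its probe sets above the filter, by 0.03, 0.09 and 0.24. Several genes had smaller differences in some or all of their other probe sets. Top2a had differences of 0.00 and 0.05 there, Kif11 had 0.08 and -0.13, and Kif2c had 0.10, -0.18 and -0.30. Spc25 had a further probe set at -0.11, Racgap1 one at -0.06 and Kif20b one at -0.07. With a gene's probe sets averaged, the difference of Top2a went from -0.38 to -0.11, that of Kif11 from -0.24 to -0.10, that of Kif2c from -0.29 to -0.17, that of Racgap1 from -0.28 to -0.17, that of Spc25 from -0.43 to -0.27 and that of Kif20b from -0.24 to -0.16. The size of the difference in these 6 genes thus depends on the probe set by more than 1.5 times.

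When the probe sets of each gene were averaged in place of taking the brightest, the median of the 45 genes was -0.17, with 42 lower means and 21 separated.

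A further 111 genes of mitosis, listed by role, gave 106 tested genes. Of these 84 had lower means, 39 were separated downwards and 9 upwards, and the median was -0.13 (-0.04 without induced replicate 1). By limma 0 passed at an adjusted p under 0.05 and 18 were lower at an unadjusted p under 0.05. Over all genes 50.4% had lower means, 19.3% were separated downwards and 20.1% upwards, and 5.23% were lower at that unadjusted level. The 26 kinetochore and centromere genes of that list had a median of -0.23 with 16 separated downwards, led by Cenpp of the inner kinetochore (-0.75 ± 0.13, 1.68-fold lower, adjusted p = 0.201), Ska1 of the microtubule-coupling Ska complex (-0.68 ± 0.15) and Dsn1 of the Mis12 complex (-0.46 ± 0.11). In these 26 genes the 2 induced arrays were closer to each other, with medians of -0.26 and -0.22 from the control mean, than in the 45.

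The 25 motor and spindle genes had a median of -0.22 (-0.04 without induced replicate 1), with 10 separated downwards, led by the augmin subunits Haus5 (-0.67 ± 0.13) and Haus4 (-0.45 ± 0.15) and the centriole duplication factor Stil (-0.54 ± 0.18). The 21 kinases and regulators had a median of -0.12 (-0.04 without induced replicate 1). Of these 21, 8 (38.1%) were separated downwards and 4 upwards, where 19.3% and 20.1% of all genes were. Those named by the size of the statistic were the Greatwall kinase gene Mastl (-0.31 ± 0.11), the centriole kinase gene Plk4 (-0.40 ± 0.16) and the Cdk-binding protein gene Cks1b (-0.24 ± 0.11). The 26 genes of the checkpoint and the anaphase-promoting complex had a median of -0.09 (-0.00 without induced replicate 1). Of these 26, 4 (15.4%) were separated downwards and 2 upwards, where 19.3% and 20.1% of all genes were. Among the 4 were the Rod-Zw10-Zwilch subunit gene Kntc1 (-0.44 ± 0.22) and the ubiquitin-conjugating enzyme gene Ube2s (-0.23 ± 0.12). Zwilch itself differed by -0.33 ± 0.17 and was not separated.

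The 8 other cytokinesis genes had a median of -0.02 (-0.00 without induced replicate 1). Of these 8, 1 was separated downwards and 2 upwards, where 19.3% and 20.1% of all genes were. The gene separated downwards was Cep55, the midbody protein that recruits the abscission machinery. Cep55 had values of 7.78 and 7.80 in controls and of 7.10 and 7.24 in induced arrays (-0.62 ± 0.10, 1.54-fold lower, adjusted p = 0.201). Rhoa, the GTPase of the contractile ring (0.12 ± 0.10), and the ESCRT-III subunit gene Chmp4b (0.12 ± 0.10) were separated upwards; both also serve functions outside division.

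DNA replication genes are given for scale, as the earlier step of the same cycle. Their median difference was -0.41 over 34 tested genes, 34 of which had lower means and 29 of which were separated, with 22 lower at an unadjusted p under 0.05. The shares over all genes were 50.4%, 19.3% and 5.23%. The genes with the largest statistics were those of the polymerase alpha subunit Pola1 (-1.19 ± 0.11), the helicase subunit Mcm3 (-0.73 ± 0.16) and the helicase component Cdc45 (-0.75 ± 0.17). Induced replicate 1 lay at a median of -0.62 and induced replicate 2 at -0.24 from the control mean. Without induced replicate 1 their median was -0.24, against -0.06 for the 45 mitosis genes. Whether the lists differ was not tested.

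**Figure D5:**
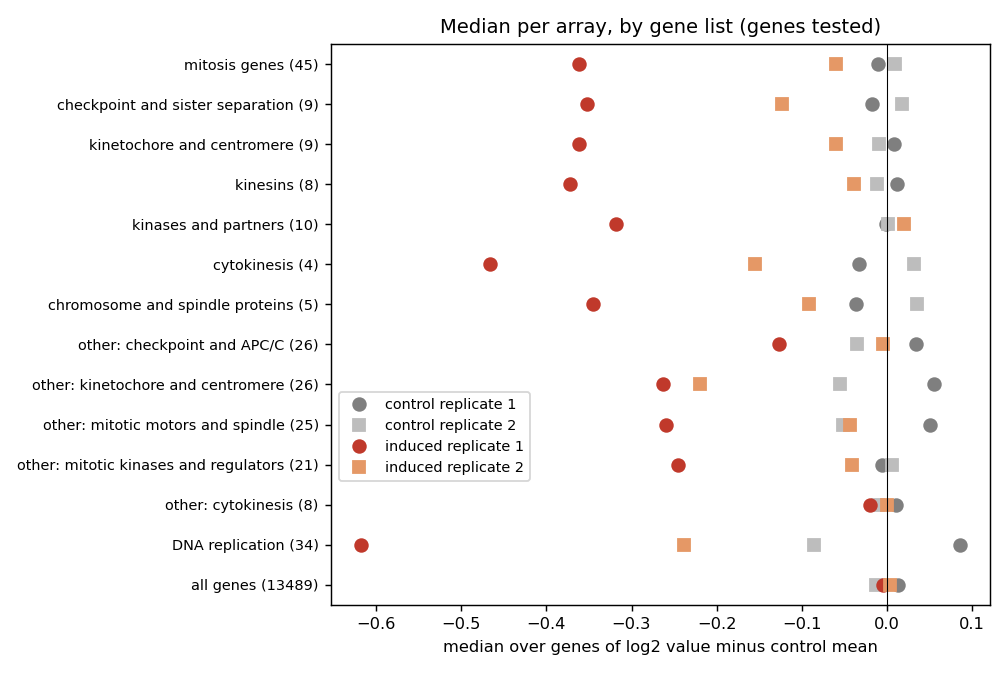
Median over genes of the log2 value minus the control mean, 1 marker per array, for the 45 mitosis genes, their 6 subgroups, 5 lists of other mitosis genes, DNA replication genes and all genes, with the number of genes tested in parentheses. In the 45 genes the medians are -0.36 in induced replicate 1 and -0.06 in induced replicate 2, and in DNA replication genes they are -0.62 and -0.24.

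Markers of other cells in the skin also differed between the arrays, and their part in these results was not tested. The signal on the linear scale, summed over 7 basal keratinocyte markers, was 42532 and 42812 in controls and 37985 and 36748 in induced arrays, and 6 of the 7 were separated downwards. Over 7 suprabasal markers it was 112776 and 113359 in controls and 112282 and 107771 in induced arrays. Over 10 hair follicle markers it was 12358 and 15173 in controls and 21018 and 24934 in induced arrays, with 8 separated upwards. That sum rests mostly on the keratins Krt25, Krt27 and Krt71 (log2 values of 11.02 to 13.42), the next highest being Padi3 (8.22 to 9.53). The other 2 markers overlapped, with their lowest value in induced replicate 1 and their highest in induced replicate 2. Lef1 was at 7.40 and 7.39 in controls and 7.06 and 7.62 in induced arrays, and Shh at 7.05 and 6.52, and 5.91 and 7.45. The basal sums were thus lower and the hair follicle sums higher in both induced arrays.

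Dermal fibroblast markers summed to 421 and 408 in controls, 296 in induced replicate 1 and 505 in induced replicate 2, and of those 7 markers Col1a1, Pdgfra and Lum lay below the filter. The 7 melanocyte markers summed to 4186 and 4367 in controls, 3826 in induced replicate 1 and 5742 in induced replicate 2. The fibroblast and melanocyte sums were lowest in induced replicate 1, as were 41 of the 45 mitosis genes, and highest in induced replicate 2. Gene by gene, 5 of the 7 melanocyte markers and 3 of the 4 tested fibroblast markers were lowest there (26.4% of all genes). Mitf (8.01 and 7.99 in controls, 8.26 and 8.56 in induced arrays) and Tyr (8.28 and 8.38, and 8.39 and 8.62) were separated upwards. Sox10 was separated downwards. The fibroblast sum rests mostly on Dcn (log2 values of 7.57 to 8.42). The 6 immune markers measured summed to 4494 and 3405 in controls and 4388 and 3337 in induced arrays, which did not separate the groups. Of 3 red cell markers measured Hba-a1 lay below the filter and the other two were separated upwards. These were the band 3 anion exchanger gene Slc4a1, with log2 values of 5.21 and 5.29 in controls and of 6.04 and 5.88 in induced arrays (0.71 ± 0.11, limma adjusted p = 0.176), and the haem synthesis gene Alas2 (0.14 ± 0.10). The red cell sums were 67.2 and 71.6 in controls and 100.4 and 91.4 in induced arrays. Of 5 endothelial markers Pecam1, Cdh5, Tie1 and Emcn lay below the filter, and the sums were 79.7 and 93.3 in controls and 79.5 and 70.1 in induced arrays. Of 5 muscle markers Myh3, Tnnt3 and Myog lay below it, and the sums were 138.8 and 138.7 in controls and 132 and 125.2 in induced arrays.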

How the data were processed

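Affymetrix mouse arrays of 2 control and 2 induced samples were analysed. The deposited values are log2 values made by RMA, per the submitters' processing notes, which give no version; no chip definition is named there. RMA gives all arrays a common distribution of values and hides a shift shared by most transcripts of a cell. Of 45101 probe sets, 64 control probe sets were left out; 34945 of the other 45037 carried a single gene in the platform annotation, with symbols updated through RefSeq, and 27022 were at or above the 40th percentile of mean values. limma 3.58.1 in R 4.3.3 (lmFit, eBayes, two-sided) compared the groups, with Benjamini-Hochberg adjustment over the 27022. There were 2 residual degrees of freedom, so p-values rest largely on the pooled spread. An exact permutation test of 2 against 2 arrays cannot go below p = 0.333. Errors are limma's standard errors, and folds are back-transformed differences.

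The test was checked on 20 simulated sets of 27022 probe sets for this comparison, with independent noise: at planted folds of 1.5, 2 and 4 it called 2.46%, 60.8% and 97.1% of the changed probe sets, and it made 5.55 wrong calls per set.

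The members, the lists, the subgroups and the tests were chosen with earlier results of these data known. Values on every array are given for the 3 members of each subgroup with the largest absolute difference and for Cdk1, Bub1, Cdc20, Top2a, Mki67, Kif11, Aurkb and Plk1 (a further clause, members higher by 0.1 or more, applied to none), and of each other list the 3 genes with the largest absolute statistic are named; the complexes were chosen after the values were seen. Separated means that both induced arrays lay on one side of both controls. Alternatives were other filters, another quantile normalization, centring, a trended robust prior, averaged probe sets, another adjusted p threshold, a replicate block and leaving out each array. Promoter windows and the miRNA come from RefSeq, GRCm38.p6. Binding sites of miR-203 in transcripts were not analysed here.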

Additional observations from a re-analysis of the deposited data

Results flagged for a closer look

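Transcripts of the Y chromosome, which none of the mitosis lists uses, had log2 values in induced replicate 1 above those of both controls. Eif2s3y was at 9.38 on that array, where the controls had 2.82 and 2.52 and the other induced array 2.72. Kdm5d was at 7.14, against 2.47, 2.65 and 2.69, and Uty was at 5.59, against 3.59, 3.47 and 3.73. The same array was the lowest of the 4 for 41 of the 45 mitosis genes. How the 2 facts are related was not tested.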

How the results depend on the processing

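The median difference of the 45 mitosis genes lay between -0.22 and -0.17 under the alternatives that kept all 4 arrays, and the count of lower means between 42 and 43. Over all probe sets the trended robust prior gave 126 calls where the main test gave 0. Leaving out each array gave 0 to 6 calls over all probe sets and, for the mitosis genes, medians of -0.36 to -0.060, 25 to 43 separated genes and 1 to 25 genes lower at an unadjusted p under 0.05; a lone array was given the spread of the other group's pair. The extremes of the medians came from leaving out induced replicate 2 and induced replicate 1. Subgroup medians ran from -0.36 to -0.060 (kinetochore), -0.37 to -0.038 (kinesins), -0.32 to 0.020 (kinases, reversed without induced replicate 1) and -0.47 to -0.15 (cytokinesis), and Mki67 from -0.34 to 0.10. The other mitosis genes had medians of -0.18 to -0.045, 47 to 76 separated and 7 to 27 lower at an unadjusted p under 0.05, and DNA replication genes 5 to 29 of the last. The cause was not tested. For the counts at an unadjusted p under 0.05 with 1 array left out, no matching share over all genes is given. The 5.23% of all genes belongs to the fit with all 4 arrays. These counts therefore cannot be read as particular to the listed genes. With 1 array left out, separation compares 1 array with 2 and is easier to meet. Counts of separated genes from such fits are not comparable with the 24 mitosis genes and 39 other mitosis genes separated downwards with all 4 arrays. Of all genes, 19.3% were separated downwards with all 4. Induced replicate 1 lay below both controls for 35.3% and induced replicate 2 for 33.3%. For the 45 mitosis genes these shares were 53.3%, 95.6% and 55.6%. The replicate numbers were not stated to mark litters, and same-numbered deviations had a Pearson's r of -0.10 over probe sets. With the replicate number as a block 7 mitosis genes were lower at an unadjusted p under 0.05 instead of 10, and with the crossed pairing, added after seeing the data, 8; 0 passed the adjusted threshold in either.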
